A study of Mus musculus with 8 samples.

Results

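Cas9 delivered without a working guide RNA was compared between nuclei sorted as Cas9-positive and nuclei sorted as Cas9-negative, in 4 of the 8 amplicon libraries of the study. Each library is the only one of its group: Cas9-positive with guide Sa1, Cas9-positive with no guide, Cas9-negative with guide Sa1, and Cas9-negative with no guide. Sa1 is described by the submitters as inoperative. The nuclei came from brain of wild-type C57BL/6 mice whose motor cortex had received AAV vectors encoding CRISPR/Cas9, and tissue was taken after 4 weeks. The animals behind all 4 libraries therefore received a Cas9 vector, and the libraries differ in sort fraction and in the presence of guide Sa1. The labels give neither the number of animals nor the gate that set the Cas9-negative fraction apart, and describe the cells only as neural. With 1 library a group there is no replicate, so no difference between fractions has a replicate check beyond its repetition in the other construct.

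The panel holds 16 amplicons: the 3 miR-124 and 2 miR-128 hairpins, which are the targeted loci, and 11 other loci chosen by the authors for guides Sa1 or Sa4. Every library has 1 block of reads per amplicon and read direction, 32 in all. A block was used if it held reads in all 4 libraries and if at most 90% of its reads lay beyond the authors' mutation limit, above which a read is counted but its changes are not listed. This left 26 blocks from 15 amplicons. Of the 6 blocks left out, 5 had no reads in at least 1 library and 1 had over 90% of its reads beyond the limit. Among used blocks the highest such share was 37.4%, and in the block left out for this reason it reached 99.5%. The used blocks held 308452 reads (Cas9-positive, guide Sa1), 701135 reads (Cas9-positive, no guide), 937497 reads (Cas9-negative, guide Sa1) and 928399 reads (Cas9-negative, no guide).

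The nuclease Cas9 is brought to a chosen DNA site by its guide RNA, and cellular repair of the break often leaves small insertions or deletions. Nuclei that hold Cas9 but no working guide are the usual control for changes that PCR, sequencing or sorting add to such counts. miR-124 and miR-128 are microRNAs abundant in neurons, each made from several hairpin loci.

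The amplicons below are shown because the results turn on them: the 5 hairpins, 2 other loci with a higher share in the Cas9-positive libraries (H and J, picked after their values were seen) and 1 called lower (K). Capitals mark the hexamer taken as the motif next to the guide's target, and the cut was predicted 3 bases before it; the guide sequences themselves were not used here. All run 5′ to 3′ on the strand the authors list first. The other loci carry the chromosome and position of the authors' names; the genome build is not given in the sources used here, so no gene annotation is given for them.

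miR-124-1: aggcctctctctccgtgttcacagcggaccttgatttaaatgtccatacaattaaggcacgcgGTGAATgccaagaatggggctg
miR-124-2: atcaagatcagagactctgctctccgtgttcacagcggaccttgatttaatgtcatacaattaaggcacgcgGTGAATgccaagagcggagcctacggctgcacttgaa
miR-124-3: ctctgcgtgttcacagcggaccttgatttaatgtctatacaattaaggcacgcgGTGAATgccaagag
miR-128-1: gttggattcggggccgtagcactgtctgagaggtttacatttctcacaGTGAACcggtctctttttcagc
miR-128-2: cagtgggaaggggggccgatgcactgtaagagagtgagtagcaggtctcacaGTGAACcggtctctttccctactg
chr2-134788648 (H, named for Sa1 and Sa4): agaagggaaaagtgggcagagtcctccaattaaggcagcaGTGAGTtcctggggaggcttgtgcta
chr3-70303938 (J, named for Sa4): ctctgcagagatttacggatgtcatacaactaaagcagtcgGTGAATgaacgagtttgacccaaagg
chrX-37055312 (K, named for Sa4): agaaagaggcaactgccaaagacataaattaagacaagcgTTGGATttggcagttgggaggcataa

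The expected sequences of miR-128-1 and miR-128-2 equal the RefSeq hairpins (GRCm38.p6 table). Both carry the mature miR-128-3p, shown with its seed (bases 2 to 8) in capitals because one of the recurrent substitutions described last falls inside it.

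mmu-miR-128-3p: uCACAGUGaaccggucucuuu

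Listed insertions and deletions were rare in all 4 libraries, and their share of a library's reads did not separate the fractions. In Cas9-positive nuclei an insertion or deletion was carried by 414 reads (0.134%) with guide Sa1 and by 910 reads (0.130%) with no guide. The Cas9-negative libraries had 1219 reads (0.130%) with guide Sa1 and 1165 reads (0.125%) with no guide. The share with guide Sa1 in Cas9-negative nuclei lay between both Cas9-positive shares, so the fractions overlapped. Deletions were also averaged over blocks with equal weight, given for guide Sa1 and then no guide. Over all 26 blocks the means were 0.157% and 0.124% in Cas9-positive and 0.135% and 0.129% in Cas9-negative libraries, which overlap. Over the 19 blocks with at least 1000 reads in each library they were 0.127% and 0.123% against 0.119% and 0.120%. Both Cas9-positive means were then higher, with a difference of means of 0.00542 points, which was not tested.

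The sizes of insertions and deletions were also close between libraries. Deletions of 1 base made up 91.2% and 89.3% of deletion reads in the Cas9-positive libraries, and 91.4% and 92.4% in the Cas9-negative ones (guide Sa1 before no guide here and below). Deletions of 3 or more bases were found in 2 of 364, 6 of 778, 6 of 1087 and 6 of 1021 deletion reads, in the order Cas9-positive with Sa1, Cas9-positive with no guide, Cas9-negative with Sa1 and Cas9-negative with no guide. The longest listed deletion had 7 bases and was in the Cas9-negative library with guide Sa1. No listed sequence carried more than 1 inserted base. Each deleted or inserted base counts toward the mutation limit, and changes of reads beyond it are not listed. Such reads made up 5.83%, 5.57%, 6.66% and 6.18% of used reads in the same order, so longer changes could not be looked for there. A deletion was also carried by 60.6%, 51.3%, 64.1% and 57.4% of reads with a listed insertion. Runs of 3 or more identical bases make up 13.6% of the expected bases, and held 54.5%, 58.4%, 48.4% and 51.7% of the 1-base deletion reads in the same order.

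A block was called for a measure only if both constructs, tested apart, showed the same direction, an adjusted p under 0.05 and at least a 1.5-fold difference (two-sided Fisher's exact test on reads, Benjamini-Hochberg adjustment over all blocks and both constructs). Such a test compares the reads of 2 libraries, not the conditions, since each group has 1 library. By this rule 0 of 26 blocks were called for insertions and 0 of 26 for deletions (0.0% each, higher or lower). The rule could hardly call the 7 blocks with under 1000 reads in a library, which held few or no such reads. For the fold a count of 0 was taken as 3 reads, so a shallow block without events could not be called lower. At chr18-57173043 with guide Sa1 and both directions added, 0 of 741 against 10 of 15456 deletion reads gave a ratio of 6.26. Taken singly by Fisher's exact test, an unadjusted p under 0.05 for insertions occurred in 0 blocks with guide Sa1 and in 1 block with no guide. For deletions it occurred in 2 blocks with each construct. The yardstick was the difference between constructs, guide Sa1 against no guide, taken within each fraction by the same rule. It also called 0 of 26 blocks (0.0%) for either measure. A difference between constructs that is found in 1 fraction only, or has opposite signs in the fractions, cannot be called by it.

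Of the hairpins, miR-124-2 had the clearest order for deletions. They were in 12 of 11062 reads (0.108%) and 24 of 24430 reads (0.0982%) of the Cas9-positive libraries, and in 26 of 64494 (0.0403%) and 33 of 63719 (0.0518%) of the Cas9-negative ones. Both Cas9-positive shares were above both Cas9-negative ones, by 0.0682 percentage points with guide Sa1 (95% interval 0.0181 to 0.150) and by 0.0465 points with no guide (0.00804 to 0.0966). Neither difference passed the adjustment over the 15 amplicons and both constructs (Fisher's exact test, adjusted p = 0.186 for each). Within 10 bases of the predicted cut the same locus had an insertion or deletion in 2 and 5 Cas9-positive reads and in 8 and 10 Cas9-negative reads, or 0.0181%, 0.0205%, 0.0124% and 0.0157%.

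Deletions at miR-128-1 ran in the same order and were small in size. The Cas9-positive shares were 0.264% and 0.248% and the Cas9-negative ones 0.202% and 0.190%. These differences of 0.0625 points (0.00104 to 0.136) and 0.0578 points (0.0103 to 0.109) were 1.31-fold and 1.30-fold, and neither passed the adjustment. Among the other loci, chr2-134788648 (H) had the same order, with 0.102% and 0.111% against 0.0843% and 0.0849%. The opposite order was found at chr11-6135151 (B), with 0.0360% and 0.0450% against 0.0478% and 0.0491%, at chr2-46717939 (G), with 0.0703% and 0.0530% against 0.0948% and 0.0828%, and at chr2-180302569 (I), with 0.0329% and 0.0306% against 0.0436% and 0.0365%. Of the 12 amplicons with at least 1000 reads in every library, both Cas9-positive shares were above both Cas9-negative ones in 3, below them in 3 and overlapped in 6. By the rule above 0 of 15 amplicons were called for deletions with both directions added.

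The other hairpins showed no such order. Deletions at miR-128-2 stood at 0.172% and 0.169% in Cas9-positive and at 0.175% and 0.169% in Cas9-negative nuclei, so the fractions overlapped, and the 95% interval of the difference with no guide ran from -0.0317 to 0.0334 points. At miR-124-1 the shares were 0.0390% and 0.105% against 0.0957% and 0.130%. miR-124-3 had 0 deletion reads among 118 and 1122 Cas9-positive reads, which allows shares of up to 2.54% and 0.267% (3 reads), against 10 of 31722 and 3 of 17638 Cas9-negative reads. At that depth no difference of the size seen elsewhere could be detected.

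Insertions at the hairpins were fewer still. They were highest at miR-128-1, with 0.0931% and 0.0637% in the Cas9-positive and 0.0547% and 0.0656% in the Cas9-negative libraries, which overlap. miR-124-1 had 0.0390% and 0.0526% against 0.0589% and 0.0482%. miR-124-2 had 0.00904% and 0.0368% against 0.0109% and 0.0110%, and miR-128-2 had 0.0148% and 0.00766% against 0.0143% and 0.00658%. In miR-124-3, 0 Cas9-positive reads had an insertion, against 5 and 2 Cas9-negative reads.

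**Figure D1:**
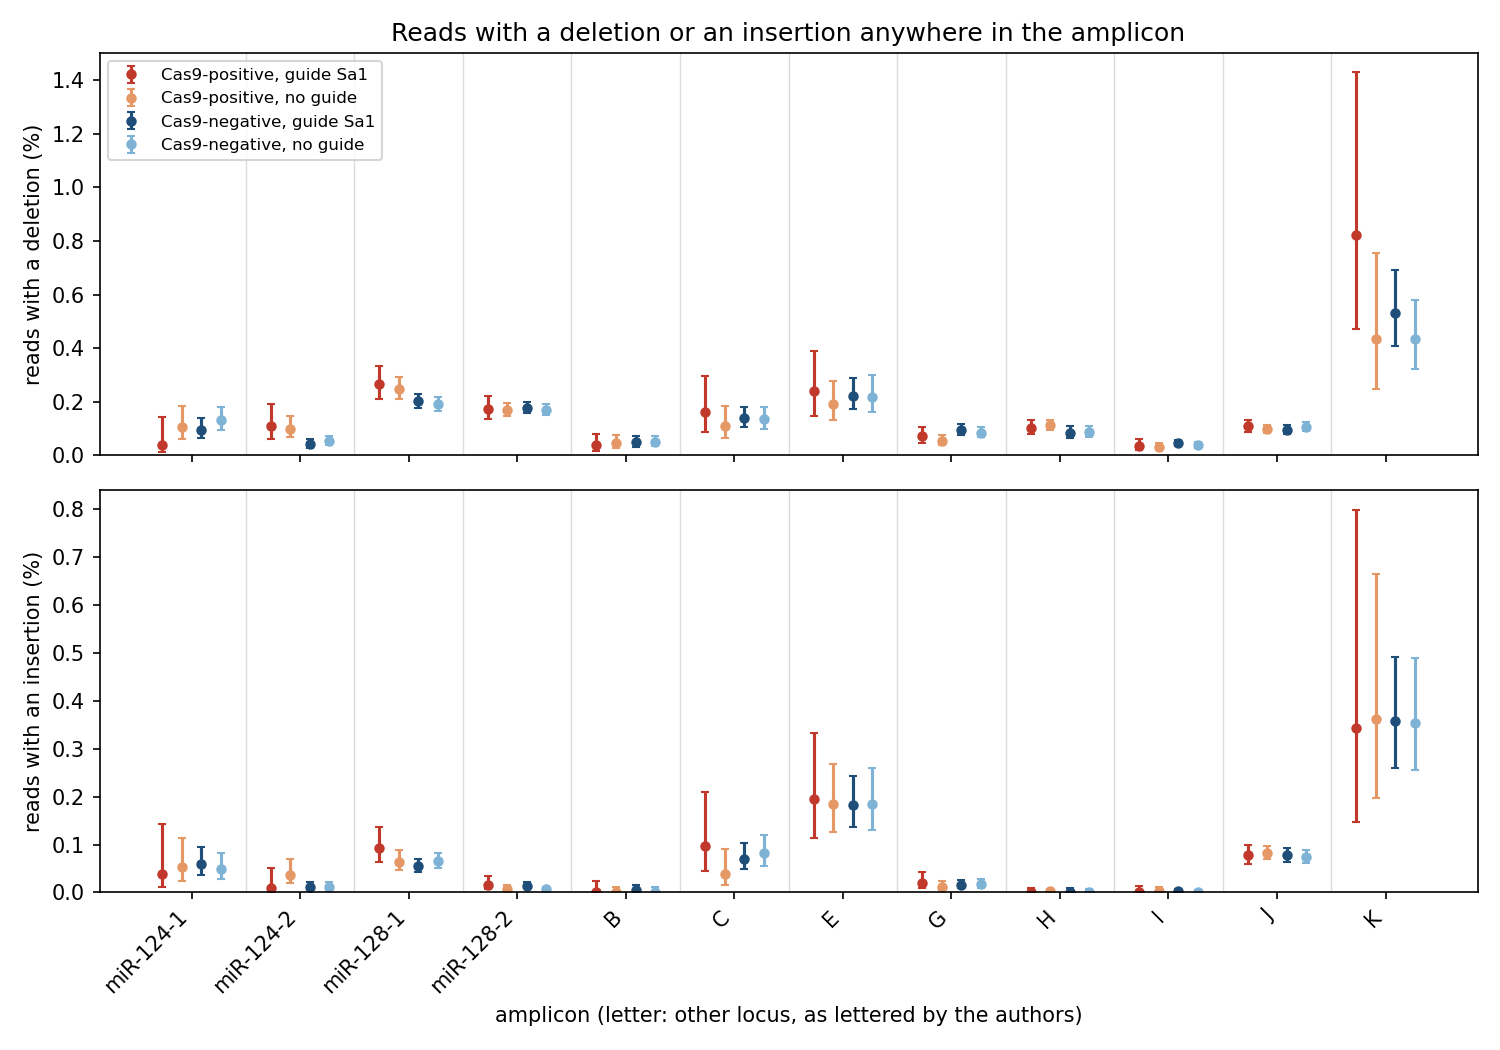
Share of reads with a deletion (top) or an insertion (bottom) in percent for the 12 amplicons with at least 1000 reads in every library; points are single libraries and bars their 95% Wilson intervals, which cover counting error only. Letters are the authors' letters for the other loci. For deletions both Cas9-positive points lie above both Cas9-negative points at miR-124-2, miR-128-1 and H and below them at B, G and I, and none of these differences was called.

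The leading alleles of the libraries with an active guide were also looked up in these 4 libraries. At miR-124-1 and miR-124-2 the 3 leading insertion or deletion alleles of the Cas9-positive, Sa4-edited library, and at miR-128-2 those of guide Sa2, had from 1350 to 10245 reads there. In the 4 libraries without an active guide, 0 reads carried any of the 6 miR-124 alleles. At miR-124-2 this allows a share of up to 0.0271% and 0.0123% in the Cas9-positive libraries and 0.00465% and 0.00471% in the Cas9-negative ones. At miR-128-2 each of the 4 libraries held 1 read with such an allele, a share of 0.00297% and 0.000957% in the Cas9-positive and 0.000621% and 0.000658% in the Cas9-negative nuclei. Each fraction thus held 2 such reads in all.

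Substitutions were far more frequent than insertions and deletions, and their level moved little with the fraction. Averaged over the 26 blocks with equal weight, 27.6% and 27.7% of Cas9-positive reads and 28.6% and 28.3% of Cas9-negative reads carried at least 1 listed substitution. Both Cas9-positive values lay below both Cas9-negative ones, with a difference of means of -0.784 points. An exact two-sided permutation test over 2 against 2 libraries gave p = 0.333, the smallest it can give. In the 19 blocks with at least 1000 reads in each library the difference was -0.437 points. Here and below, reads beyond the mutation limit count as having no substitution. The mean share of such reads, Cas9-positive minus Cas9-negative, differed by 0.869 points over the 26 blocks and by -0.192 points over the 19. Their part in the substitution difference was not tested. By the rule above 0 of 26 blocks (0.0%) were called for the substitution share, between fractions and likewise between constructs. Taken singly, adjusted p between fractions was under 0.05 in 1 block with guide Sa1 and 4 with no guide, all lower (Fisher's exact test). Between constructs it was so in 1 block of the Cas9-positive and 3 of the Cas9-negative libraries. The deepest block, chr3-70303938 reverse, shows the size of what passed the adjusted test below that fold: 28.7% against 29.4% with guide Sa1 and 28.3% against 29.3% with no guide (Fisher's exact test, adjusted p = 0.00354 and 5.28e-09).

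Each hairpin kept its own substitution level in all libraries. At miR-124-1 it was 43.8% and 44.4% in Cas9-positive nuclei and 45.6% and 45.5% in Cas9-negative nuclei. At miR-128-2 it was 14.4% and 14.4% against 14.6% and 14.6%. The loci thus differed from each other by far more than the fractions did. miR-124-2 had 24.5% and 24.1% against 24.3% and 23.5%, miR-128-1 had 32.0% and 31.6% against 32.2% and 31.8%, and miR-124-3 had 11.0% and 12.3% against 13.2% and 13.2%.

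The 12 substitution types had nearly the same order in each library. T-to-A was most frequent, with a mean over blocks of 13.6% and 13.5% in the Cas9-positive and 14.0% and 13.8% in the Cas9-negative libraries. A-to-T followed with 6.65% and 6.47% against 6.76% and 6.67%. Most other transversions lay between 3.98% and 5.01% in every library (A-to-C, C-to-A, G-to-C, G-to-T and T-to-G), and C-to-G between 2.79% and 3.01%.

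Transitions, which exchange one purine for the other or one pyrimidine for the other, were the rarest. A-to-G stood at 0.977% and 0.938% against 1.07% and 1.03%, and G-to-A at 0.807% and 0.859% against 0.838% and 0.860%. C-to-T stood at 0.342% and 0.382% against 0.367% and 0.411%. T-to-C had the largest relative difference, 0.269% and 0.269% against 0.332% and 0.320%, or 0.810-fold and 0.840-fold. Over the 19 deeper blocks its means were 0.290% and 0.315% against 0.322% and 0.297%, so that the fractions overlapped there.

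In all, 8 of the 12 types had both Cas9-positive means below both Cas9-negative means, 0 had both above and 4 overlapped. In the 19 deeper blocks these counts were 5, 0 and 7. The difference was 0.315 points at most, for T-to-A. Tested by block and type, 0 of 312 combinations (0.0%) were called between fractions, and 0 of 312 between constructs. With single constructs, adjusted p was under 0.05 in 1 combination for guide Sa1, which was lower, and in 19 for no guide, 17 lower and 2 higher (Fisher's exact test). Between constructs it was so in 3 combinations of the Cas9-positive and 7 of the Cas9-negative libraries.

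**Figure D2:**
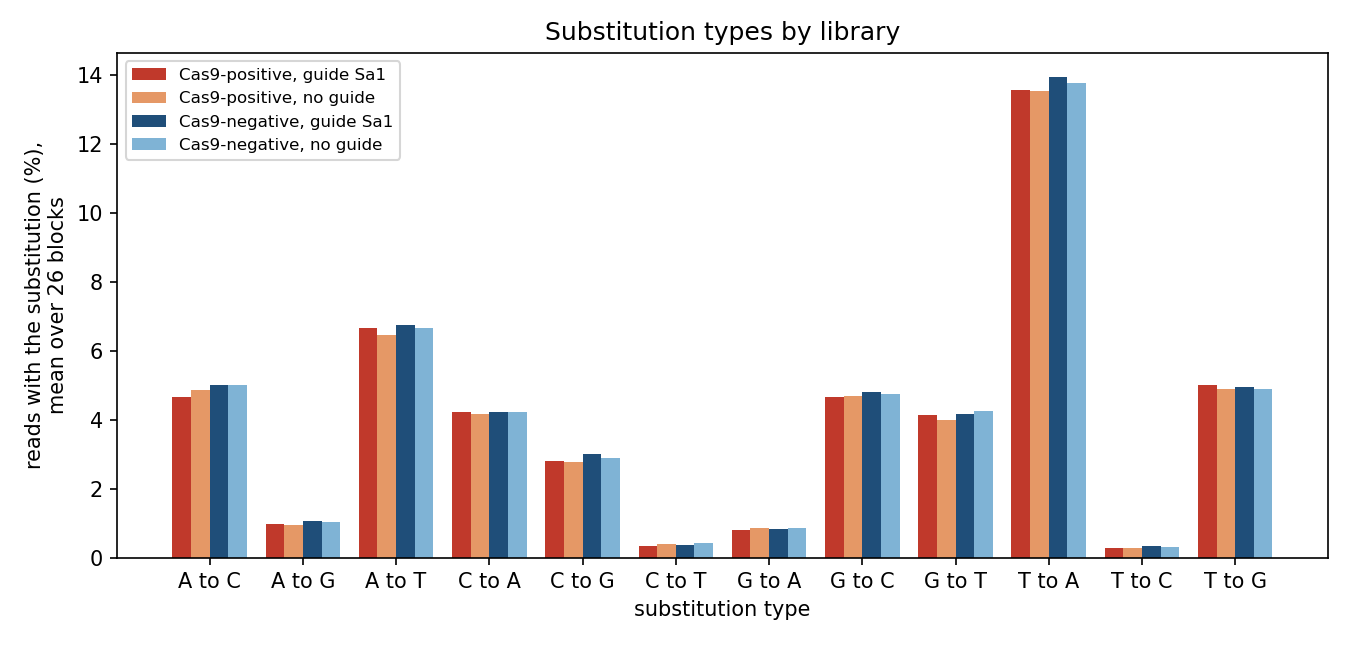
Reads with each of the 12 substitution types, in percent of all reads and as means over 26 blocks, on the strand listed by the authors for each block; bars are the 4 libraries, which have no replicates, so no error bars are drawn. T-to-A is highest in every library, at 13.5% to 14.0%, and the 4 bars of a type are nearly level.

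Depth had more blocks called between the Cas9-positive and the Cas9-negative libraries than any other measure. The depth of an amplicon is given as its share of a library's reads over the used blocks, so a gain at 1 locus lowers the others. In Cas9-positive nuclei 6 of 26 blocks (23.1%) were called lower with at least a 2-fold difference in both constructs, and 0 of 26 (0.0%) higher. They were both directions of miR-124-3, chr18-57173043 (letter F) and chrX-37055312 (K). The largest of their 12 adjusted p-values was 8.44e-99 (Fisher's exact test). Between constructs 0 of 26 blocks (0.0%) were called in either direction, a rule that needs the same direction in both fractions. Taken singly, adjusted p between constructs was under 0.05 in 20 blocks of the Cas9-positive and 25 of the Cas9-negative libraries (Fisher's exact test). Between fractions it was so in 26 blocks with guide Sa1 and 25 with no guide. At miR-124-3 the log2 ratio of guide Sa1 to no guide was -2.06 in Cas9-positive and 0.83 in Cas9-negative nuclei. Shares alone do not show whether the Cas9-positive ones were lowered or the Cas9-negative ones raised. Differences in the copies of a locus and in its amplification cannot be told apart in these data either.

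The pair of Cas9-negative libraries stood apart from the rest of the study in this measure. At 6 of the 15 amplicons (chr10-114394356, chr13-59004015, chrX-37055312, miR-124-1, miR-124-2 and miR-128-1) both had larger shares than any of the other 6 libraries, the Cas9-negative libraries with guides Sa2 and Sa4 included. At H and J both had smaller shares than any of these 6. At miR-124-2, for example, they had 6.88% and 6.86% against 3.31% to 4.11% in the other 6 libraries. The pair of Cas9-positive libraries lay outside the range of the other 6 at chr18-57173043 alone, with 0.240% and 0.255% against 0.335% to 1.65%. The part of these libraries in the depth differences below was not tested.

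miR-124-3 had the largest depth difference of the 15 amplicons. It gave 118 reads (0.0383%) with guide Sa1 and 1122 reads (0.160%) with no guide in Cas9-positive nuclei. In Cas9-negative nuclei it gave 31722 reads (3.38%) and 17638 reads (1.90%). The share was 88.4-fold lower with guide Sa1 and 11.9-fold lower with no guide, and the fractions lay far apart.

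The chr18-57173043 locus, named for Sa4, had 0.0791% and 0.0861% of reads in the forward direction of the Cas9-positive libraries against 0.607% and 0.470% in the Cas9-negative ones. In the reverse direction it had 0.161% and 0.168% against 1.04% and 0.817%. Both directions added, it was 6.86-fold and 5.06-fold lower in Cas9-positive nuclei. The chrX-37055312 locus stood at 0.473% and 0.395% against 1.10% and 1.09%, or 2.33-fold and 2.77-fold lower. It is on the X chromosome, and the labels give no sex for the animals.

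The other hairpins were also lower in Cas9-positive nuclei, by less than the 2-fold threshold in at least 1 construct or direction. miR-124-1 had 1.66% and 1.63% against 2.90% and 2.90%, and miR-124-2 had 3.59% and 3.48% against 6.88% and 6.86%. miR-128-1 had 8.70% and 8.06% against 12.1% and 10.8%. miR-128-2 had 10.9% and 14.9% against 17.2% and 16.4%, so that with no guide its difference was only 1.10-fold.

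All 5 hairpins thus had both Cas9-positive shares below both Cas9-negative ones, as did 4 of the 10 other loci used, while 2 of those lay above and 4 overlapped. The loci above were H and J, which had the largest shares of the Cas9-positive libraries. chr2-134788648 (H) took 18.8% and 15.4% of Cas9-positive reads and 7.21% and 8.75% of Cas9-negative reads, 2.60-fold and 1.76-fold more. chr3-70303938 (J) took 25.9% and 25.8% against 14.9% and 16.2%, 1.74-fold and 1.60-fold more. Both loci together held 44.7% and 41.2% of Cas9-positive reads and 22.1% and 24.9% of Cas9-negative reads, and shares of a library sum to a fixed total.

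The scale of shares was set against another. The median block had a log2 ratio of -0.71 with guide Sa1 and -0.48 with no guide on the scale of shares. Set against the median block of each library, log2 ratios rose by 0.62 on average. The shift is the same for all blocks of a library, so ratios near 0 change sign by construction, and the mean over constructs did so in 9 of the 26 blocks. These 9 included both directions of miR-128-1 and miR-128-2 and the forward direction of miR-124-2. The reverse direction of miR-124-2 was at -0.26 with guide Sa1 and -0.54 with no guide on this scale. Relative to the median block 6 blocks were called, 4 lower (miR-124-3 and chr18-57173043) and 2 higher (H and J). The chrX locus then had log2 ratios of -0.36 and -0.91 in the forward and -0.64 and -0.99 in the reverse direction and was not called.

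**Figure D3:**
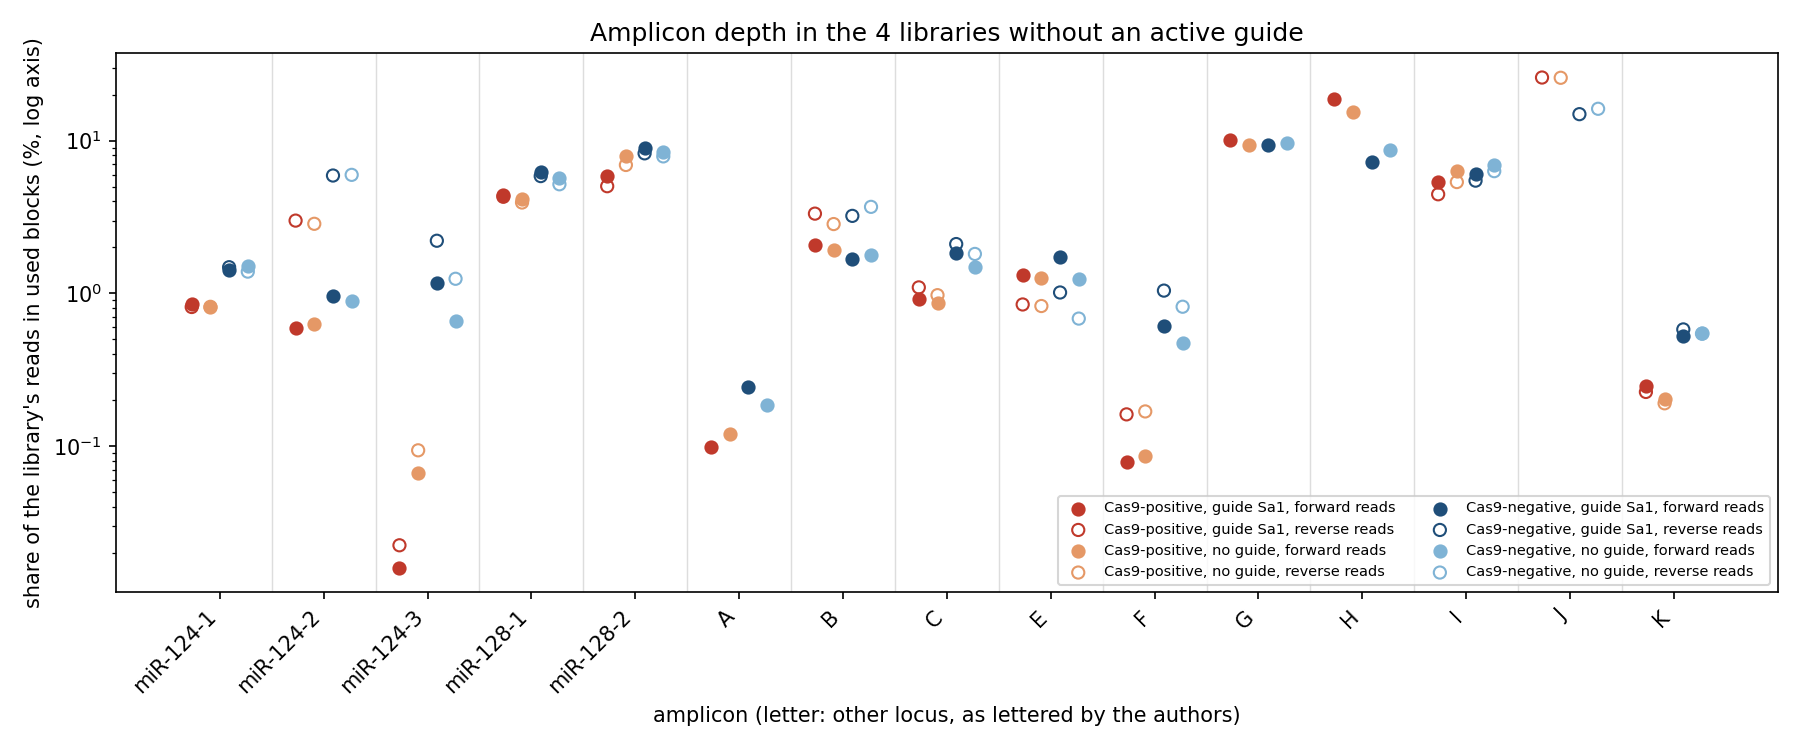
Share of each library's reads in used blocks, in percent on a log axis, for the 15 amplicons; filled points are forward reads and open points reverse reads, each from a single library. Letters are the authors' letters for the other loci. miR-124-3 has 0.0383% and 0.160% over both directions in the Cas9-positive libraries, against 3.38% and 1.90% in the Cas9-negative ones.

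The depth profile of the fractions repeated between guide Sa1 and no guide, and between read directions. Over the 26 blocks the log2 ratios with guide Sa1 and with no guide had a Pearson correlation of 0.95 and a Spearman correlation of 0.93, and without miR-124-3 these were 0.94 and 0.91 over 24 blocks. Blocks are not independent, since shares of a library sum to a fixed total and most amplicons enter by both directions. In the 11 amplicons with both directions the mean log2 ratios of forward and reverse reads differed by at most 0.43. The median block differed by 0.77 (guide Sa1) and 0.65 (no guide) on the log2 scale between fractions, regardless of sign, and by 0.12 (Cas9-positive) and 0.19 (Cas9-negative) between constructs. Across the 15 amplicons the mean log2 ratio had a Pearson correlation of 0.10 with GC content (Spearman 0.11), of -0.03 with length (Spearman -0.09) and of 0.49 with the mean share in the Cas9-negative libraries (Spearman 0.64), whose reads also enter the ratio.

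The contrast of fractions was also read in the libraries with an active guide. With guide Sa2 and guide Sa4, chr18-57173043 was 3.52-fold and 3.10-fold lower in Cas9-positive nuclei. The chrX locus was 1.28-fold and 1.21-fold lower, while miR-124-1 was 1.02-fold lower with Sa2 and 1.98-fold higher with Sa4. miR-124-3 was 1.35-fold lower with guide Sa2, and with guide Sa4, which is directed at miR-124, it had 0 reads in the Cas9-positive library, which allows a share of up to 0.000439%. miR-128-2 was 1.71-fold and 1.52-fold lower. The ratio of Cas9-positive to Cas9-negative share was 0.925 and 0.866 at miR-124-2 and 0.955 and 0.978 at miR-128-1. H was 1.56-fold and 1.51-fold higher, and J 1.03-fold and 1.25-fold. The chrX locus held 0.408% and 0.270% in the Cas9-negative libraries with Sa2 and Sa4, below the 1.10% and 1.09% of the Cas9-negative libraries without an active guide. These differences between constructs were not tested.

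**Figure D4:**
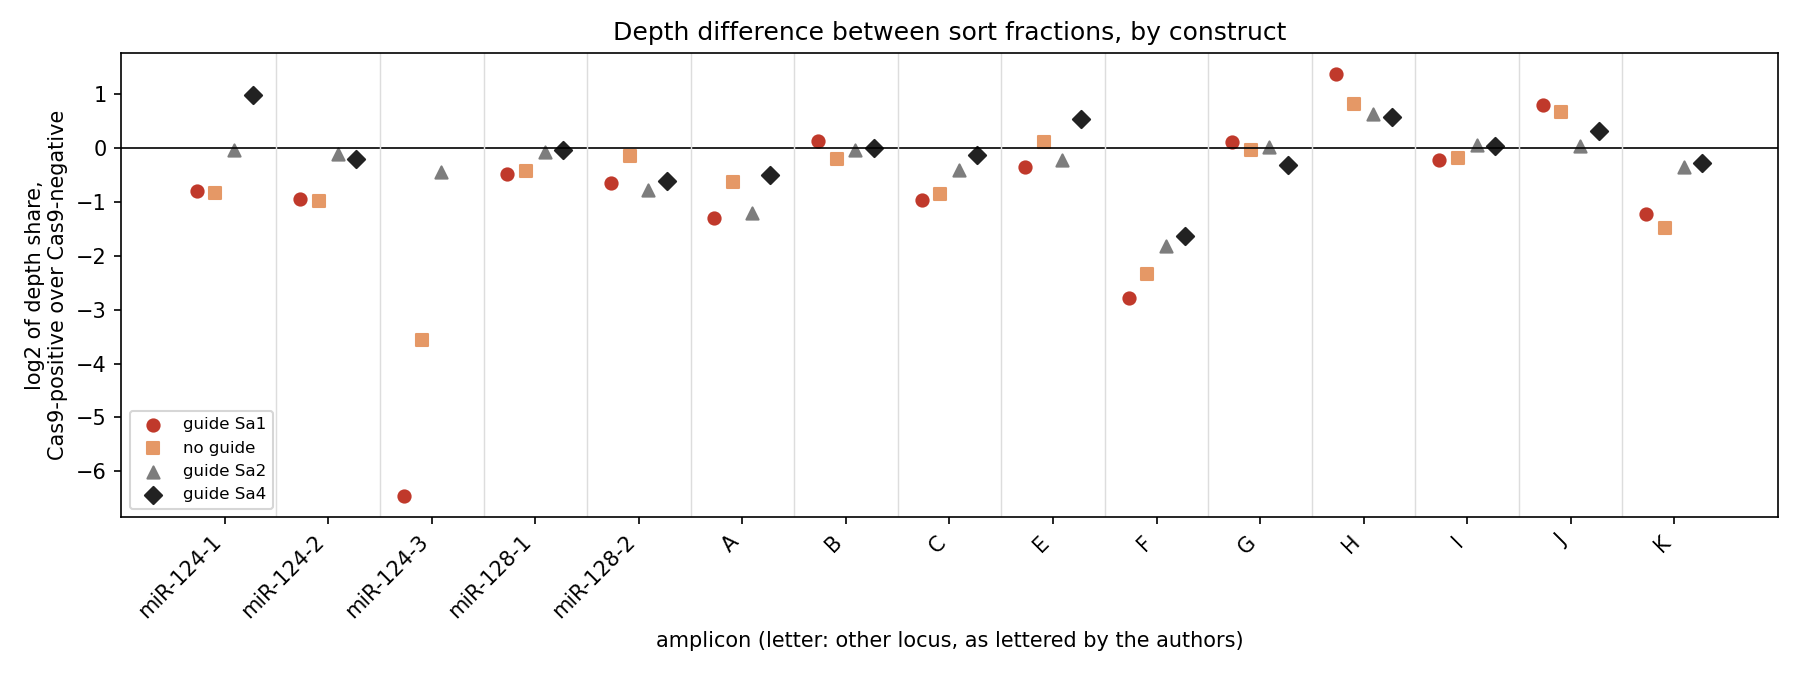
Log2 of the depth share in Cas9-positive over that in Cas9-negative nuclei for 15 amplicons, with both directions added; each point compares 2 libraries of a construct, and there are no replicates. Guide Sa4 has no point at miR-124-3, where its Cas9-positive library held 0 reads. chr10-114394356 (A), chr13-59004015 (C), chr18-57173043 (F), chrX-37055312 (K), miR-124-2, miR-128-1 and miR-128-2 are below 0 with every construct. F is the lowest of these with each construct. miR-124-3 is far lower with guide Sa1 and no guide than with guide Sa2.

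Reads beyond the mutation limit were called higher in Cas9-positive nuclei in 2 of 26 blocks (7.69%) and lower in 0 of 26 (0.0%), and between constructs 0 of 26 were called (0.0%). Both are blocks with low depth in that fraction. In chr18-57173043 reverse such reads made up 15.1% and 15.2% of Cas9-positive and 2.78% and 8.58% of Cas9-negative reads (Fisher's exact test, adjusted p = 1.08e-27 and 4.21e-10). In miR-124-3 forward they made up 6 of 49 reads (12.2%) and 41 of 465 reads (8.82%) against 3.27% and 3.33% (Fisher's exact test, adjusted p = 0.0347 and 2.35e-06). The opposite directions of both loci were not called. chr18-57173043 forward ran in the same order, with 25.0% and 23.3% against 13.5% and 18.4%, and was called higher with a 1.2-fold threshold. miR-124-3 reverse had 0 of 69 reads and 1.83% against 1.71% and 2.01%.

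Counted over the whole library, such reads were no more frequent in Cas9-positive nuclei. chr18-57173043 reverse had 24.3 and 25.5 reads beyond the limit per 100000 reads in the Cas9-positive libraries and 29.0 and 70.1 in the Cas9-negative ones. Its reads within the limit numbered 137 and 143 per 100000 in Cas9-positive and 1013 and 747 in Cas9-negative libraries. With both directions added, 0 of 15 amplicons were called. The mean over all 26 blocks was 11.1% and 10.7% against 9.82% and 10.2%, and over the 19 deeper blocks 9.88% and 9.69% against 9.99% and 9.97%, which reverses the order.

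Single substitutions that recurred in 1 library stood out at miR-128-2; they were chosen after their values were seen. Of 1138 substitutions (a base change in a block) with at least 200 reads over the 4 libraries, 6 had reads in every library and differed at least 2.5-fold between fractions in a construct. Of these, 4 lay in miR-128-2 and 2 in chr18-57173043 reverse, where the Cas9-positive library with Sa1 had 497 reads. C22T, counted from the 5′ end of the sequence shown and at base 12 of mature miR-128-2-5p, was in 0.290% of forward and 0.296% of reverse reads of the Cas9-positive library with no guide. In the other 3 libraries it was in 0.0440% to 0.0966% of reads. C51T, at base 4 of mature miR-128-3p and so within the seed, was in 0.279% and 0.311% of that same library, and in 0.0110% to 0.0644% of reads elsewhere. Only 1 forward read of that library carried both changes.

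C74T was found in 336 of 77448 reverse reads (0.434%) of the Cas9-negative library with guide Sa1. It was in 1, 6 and 4 reverse reads of the other libraries (0.00644%, 0.0123% and 0.00546%), and in 0 forward reads of any of them. The type counts of the block differ with and without these reads. Forward C-to-T at miR-128-2 stood at 0.920% of reads in the Cas9-positive library with no guide against 0.442% in its Cas9-negative partner, and at 0.353% against 0.352% once reads with these changes were left out. On the listed reverse strand G-to-A stood at 0.535% and 1.05% in Cas9-positive and 0.903% and 0.468% in Cas9-negative reads, and at 0.367%, 0.428%, 0.398% and 0.355% without them.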

How the data were processed

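Genomic DNA of sorted nuclei was amplified with a QIAseq kit after direct lysis, per the labels; bcl2fastq and cutadapt are named in the submitters' processing notes without version. The deposited files hold, per the file headers, whole-number read counts and their percent for each amplicon block, classed by number of mutations, with every listed mutated sequence and its changes; the aligner, filters and build are not given in the sources used here. Read counts were used as the authors deposited them and the deposited percent values served only as a check (0 differed). Of 445542 listed sequences in the 8 libraries 520, with 571 reads, could not be placed on the expected sequence and were counted as unchanged. This holds also where the authors list an insertion or deletion for them, and their spread over the libraries was not tested. All read names were read 1 of a single flow-cell lane. Depth per library is given in the report. No molecular identifier is named in the labels, so intervals (95%, Wilson; Newcombe for differences) and limits (3 reads for a count of 0) cover counting error only.

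Tests were made with Python 3.11.15 and scipy 1.17.1: Fisher's exact test by block within each construct, with Benjamini-Hochberg adjustment. The calling rule was checked on simulated reads with deletion-like and substitution-like shares. These had no variation between libraries beyond counting error and depth was not simulated, so false calls from differences between libraries were not checked. P-values below 1e-300 were written as 1e-300. Substitution types are on the strand listed for each block. By the rule for named items these are the 5 hairpins, of the other loci up to 5 called for a measure with the largest mean absolute log2 ratio, all 12 types, and the 3 leading alleles of edited libraries at each of miR-124-1, miR-124-2 and miR-128-2. B, G, H, I, J and recurrent substitutions were named after their values were seen. The members and lists were chosen with earlier results of these data known. Alternatives were pooled directions, other denominators, thresholds and depth scalings, and listed sequences with at least 10 reads. Each construct alone, and blocks with at least 1000 reads, were added after the data had been seen.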

Additional observations from a re-analysis of the deposited data

Results flagged for a closer look

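The depth difference between fractions was not of the same size with both constructs. A test of the difference of log odds ratios on reads (Woolf's, which compares 4 libraries and not conditions) passed the Benjamini-Hochberg adjustment in 24 of 26 blocks, and in 4 of them the difference reached 1.5-fold. It was 7.53-fold larger with guide Sa1 than with no guide for miR-124-3 forward and 7.51-fold larger for miR-124-3 reverse. For chr10-114394356 forward it was 1.60-fold larger, and for chr2-134788648 forward, where Cas9-positive nuclei had more reads, 1.57-fold larger.

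Reads outside the comparisons were seen in the reverse block of chr2-134788648. It held 106757 reads in the Cas9-positive library with no guide and 66735 reads in the Cas9-negative library with guide Sa1, all but a few of them beyond the mutation limit, and 0 reads in the other 2 libraries compared. Their forward blocks held 107972 and 67613 reads.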

How the results depend on the processing

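No paired analysis was possible because replicate numbers link no libraries, each group holding a single one, which also leaves no replicate to omit. Fisher's exact tests compared the fractions within each construct. The library means, their permutation test and the order of the shares set both Cas9-positive against both Cas9-negative libraries, across constructs. The counts of 0 for insertions and deletions were 0 under each alternative run for them (added directions, other denominators, at least 10 reads a sequence, a limit of 50% beyond the mutation limit, which keeps the same 26 blocks, the window at the cut, a lower fold, each construct alone). With listed sequences of at least 10 reads only, 5 blocks were called lower for the substitution share and 54 combinations lower for types. A fixed count of 10 reads is a larger share of a shallower library. The Cas9-positive libraries held 308452 and 701135 used reads against 937497 and 928399. This setting therefore cannot be read as a difference between fractions, and the part of depth in it was not tested. Types called with guide Sa1 alone numbered 1, and with no guide alone 3. Reads beyond the limit were called in 0 amplicons with directions added, and in 3 blocks, all higher, with a 1.2-fold threshold. Depth gave 3 calls with directions added and 14 with a 1.5-fold threshold (2 higher, 12 lower), and 4 of 23 without the 3 deepest blocks. In blocks with at least 1000 reads the difference of means was -0.437 points for substitutions and -0.192 points for reads beyond the limit, against 0.869 over all blocks. Depth limits miR-124-3 most, with 118 reads for Cas9-positive, guide Sa1.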
